A study of Mus musculus with 11 samples.

Results

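The hedgehog pathway was examined through 10 of its genes, Shh, Ptch1, Smo, Sufu, Gli1, Gli2, Gli3, Hhip, Gas1 and Cdon, out of 18193 genes that the array annotation names. Every probe set with exactly 1 gene symbol and 1 of those symbols was taken, which gave 26 of 34945 such probe sets. A probe set is a group of short probes on the array that together report 1 transcript region. The RNA came from back skin keratinocytes of K5-myrAkt(L84) mice, in which the keratin 5 promoter drives a membrane-anchored, active form of the kinase Akt in basal and follicle keratinocytes. An anti-CD34 antibody and magnetic beads divided the cells into a CD34+ fraction, measured on 5 arrays, and a CD34- fraction, measured on 6. Both fractions carry the transgene, and no fraction of mice without it was analysed here. The labels state neither age nor hair cycle stage, nor whether each array stands for another mouse. The p-values therefore describe only how far these arrays scatter, which may be technical. The cell type label calls both fractions hair follicle stem cells, while the design text does so only for CD34+ cells.

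Hedgehog ligands are secreted lipid-modified proteins that bind the receptor Ptch1 and so release Smo, a membrane protein that then gathers in the primary cilium. Active Smo turns the transcription factors Gli2 and Gli3 from restrained or repressor forms, held back by Sufu, into activators, and the target genes include Gli1, Ptch1 and Hhip. In skin, Shh made by the growing follicle epithelium is needed for hair follicle growth, and an overactive pathway is the known basis of basal cell carcinoma.

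All 3 Gli transcription factor genes were higher in CD34+ cells. The ligand gene Shh and the co-receptor gene Cdon were called higher too. Their groups overlapped, and their calls were kept in only 2 and 3 of 11 fits without 1 array. The brightest probe sets of Ptch1, Smo, Sufu and Gas1 did not pass the test. On the brightest probe sets Gli2 was 3.21-fold and Gli3 2.08-fold higher. Gli1, dim in CD34- cells, was an estimated 2.26-fold higher with values under the 40th percentile of the array raised to it. Of the 26 probe sets, 14 passed a filter that left out the dimmest 40% of probe sets by mean signal, and 12 did not. Among those 14, 7 were higher in CD34+ cells, 0 were lower (0 also at an unadjusted p under 0.05, and 0 by an exact rank-sum test) and 7 were not called, at an adjusted p under 0.05 in limma, a linear model fitted to all tested probe sets. Among all 20967 tested probe sets 20.7% were called, 11.0% higher and 9.77% lower. After quantile normalization, 1386 probe sets were called higher and 2206 lower, against 2296 and 2048 with the values as deposited, and the members then had 5 higher and 0 lower. The count over tested members depends on the filter, since Gli1 and the dimmer Gli2 probe set passed it through their CD34+ values. Without any filter 6 of the 26 were called, or 23.1%, all of them higher, where 11.7% of all 34945 probe sets were called, 6.55% higher and 5.10% lower. As these are bulk fractions, fewer cells of a type and less RNA per cell cannot be told apart.

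**Figure D1:**
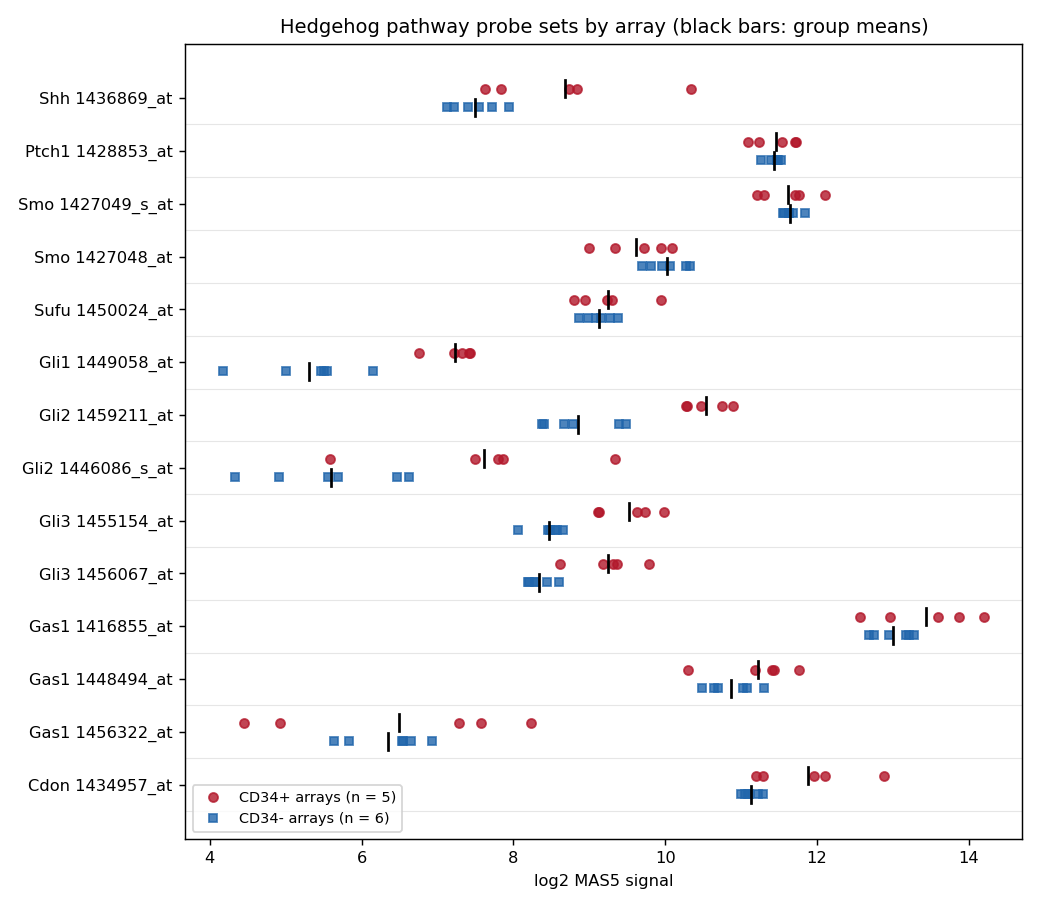
The log2 MAS5 signal of the 14 tested hedgehog probe sets is plotted for each array, with 5 CD34+ arrays as red circles above 6 CD34- arrays as blue squares and black bars for group means. The groups are fully parted for Gli1, for the brighter Gli2 probe set and for both Gli3 probe sets, and overlap for the other 10.

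Gli1, a transcription activator that is itself a standard target of the pathway, had log2 signals of 7.32, 7.41, 7.22, 6.75 and 7.43 on CD34+ arrays 1 to 5. On the 6 CD34- arrays its lowest, median and highest log2 signals were 4.18, 5.48 and 6.15. Every CD34+ array lay above every CD34- array, as was so for 7.20% of all tested probe sets, while 6.20% were parted the other way. The measured means differed by 1.92 on the log2 scale (SE 0.36, limma adjusted p = 0.00275), and an exact two-sided permutation test over the arrays gave p = 0.00433, the smallest that 462 splits allow. Gli1 was dim in CD34- cells, under the 40th percentile of the array on all 6. With values under that percentile raised to it, Gli1 was 2.26-fold higher in CD34+ cells (limma adjusted p = 0.000353). That fit called 15.5% of all probe sets higher. The fold is an estimate and not a lower bound, since all CD34- values became the percentile itself, 5.95 to 6.17 on those arrays. On CD34+ arrays the percentile was 6.33 to 6.88. Raising the values also cut the SE from 0.36 to 0.17, so the smaller adjusted p adds no support.

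Gli2, the main activator among the Gli factors, had log2 signals of 10.89, 10.47, 10.28, 10.75 and 10.29 on CD34+ arrays 1 to 5 on its brighter probe set. CD34- arrays had 8.37 as the lowest, 8.73 as the median and 9.49 as the highest. The groups did not overlap, and the lowest CD34+ array was above the highest CD34- array. This log2 difference was 1.68 (SE 0.22, limma adjusted p = 0.000294, exact permutation p = 0.00433). The dimmer Gli2 probe set, designed to the same sequence record, gave 2.02 (SE 0.57, adjusted p = 0.025). There the groups overlapped, because CD34+ array 2 had 5.58 while the other CD34+ arrays had 7.49 to 9.34, against 4.33 to 6.63 on CD34- arrays. Without CD34- array 3 or without CD34- array 2 that dimmer probe set lost its call (highest adjusted p = 0.0535), as it did after quantile normalization (1.60, adjusted p = 0.105) and by the exact rank-sum test (adjusted p = 0.105).

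Gli3, which mostly acts as a repressor when no ligand is present, had log2 signals of 9.98, 9.12, 9.12, 9.74 and 9.62 on CD34+ arrays 1 to 5. Its lowest, median and highest values on CD34- arrays were 8.06, 8.52 and 8.65. No CD34- array reached the lowest CD34+ array. Gli3 was higher by 1.05 on the log2 scale (SE 0.19, limma adjusted p = 0.00213). A second Gli3 probe set, designed to another sequence, was likewise parted between the fractions, with 8.61 to 9.79 on CD34+ arrays and 8.20 to 8.60 on CD34- arrays. Its difference was 0.91 (SE 0.19, adjusted p = 0.0054), so that both tested Gli3 probe sets were called. With arrays set to equal medians the brightest Gli3 probe set kept its call at 0.57 (adjusted p = 0.0436), while the second Gli3 probe set (0.43, adjusted p = 0.0861) and the dimmer Gli2 probe set (1.54, adjusted p = 0.05002) lost theirs. The call held in all 11 fits without 1 array for Gli1, the brighter Gli2 probe set and both Gli3 probe sets.

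The promoter windows of Gli2 and Gli3 are shown because the 3 Gli genes were called together, and no Gli1 window was in the table used here. Windows run from 250 bases before to 50 after a transcript start and come from RefSeq (GRCm38.p6), which matched 8 of the 10 genes, all but Shh and Gli1. They need not mark the start in use: the Gli2 window lies 786 bases inside the gene from its outermost annotated start, that of Ptch1 7725 and that of Cdon 30548. Gli2 lies at chr1:119053570-119053869 on the minus strand and Gli3 at chr13:15463473-15463772 on the plus strand, and capitals mark the GC box, GGGCGG on either strand.
Gli2: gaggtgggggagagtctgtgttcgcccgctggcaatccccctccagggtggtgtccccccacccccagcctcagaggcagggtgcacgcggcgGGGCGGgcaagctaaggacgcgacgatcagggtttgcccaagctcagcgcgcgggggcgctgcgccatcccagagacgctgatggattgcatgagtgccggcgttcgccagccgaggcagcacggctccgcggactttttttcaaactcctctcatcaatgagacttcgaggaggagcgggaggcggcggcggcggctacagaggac
Gli3: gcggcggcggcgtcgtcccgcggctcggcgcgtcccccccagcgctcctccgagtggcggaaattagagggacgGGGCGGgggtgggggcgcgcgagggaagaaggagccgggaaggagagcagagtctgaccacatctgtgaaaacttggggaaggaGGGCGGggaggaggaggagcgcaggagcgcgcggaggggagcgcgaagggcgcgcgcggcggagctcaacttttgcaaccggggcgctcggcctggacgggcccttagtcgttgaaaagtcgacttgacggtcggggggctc
Both windows are rich in G and C, 67.3% for Gli2 and 71% for Gli3, where the median of all 32851 windows was 52.7%. The Gli2 window holds 1 GC box and the Gli3 window holds 2, and 35.7% of all windows hold at least 1. Among the 8 member windows 6 hold a GC box, 3 hold a CCAAT box (CCAAT on either strand, 37.4% of all windows) and 0 hold a TATA box (TATAAA, 13.6% of all windows). The Gli binding motif GACCACCCA, searched on both strands with no mismatch, was in none of the 8 windows and in 0.253% of all windows.

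Shh, the secreted ligand, was higher in CD34+ cells by 1.18 (SE 0.38, limma adjusted p = 0.0423). Its log2 signals were 8.73, 10.34, 7.83, 8.84 and 7.63 on CD34+ arrays 1 to 5, and 7.13, 7.48 and 7.94 were the lowest, median and highest on CD34- arrays. CD34+ arrays 3 and 5 lay within the CD34- range, and CD34+ array 2 stood highest. The call was lost after quantile normalization (1.02, adjusted p = 0.0971), with equal medians (0.70, adjusted p = 0.101), without the filter (adjusted p = 0.0526) and by the exact rank-sum test (adjusted p = 0.105). It was also lost in 9 of 11 fits without 1 array, with a highest adjusted p of 0.0795, and the difference was 0.77 without CD34+ array 2 and 0.61 without CD34+ arrays 1 and 2 (adjusted p = 0.156). The other Shh probe set reached the 40th percentile on no array.

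Among the receptors, Ptch1, which binds the ligand and is also a target of the pathway, had nearly equal signals in both fractions. Log2 signals were 11.09, 11.54, 11.23, 11.71 and 11.72 on CD34+ arrays 1 to 5, and 11.26, 11.47 and 11.52 as the lowest, median and highest on CD34- arrays. CD34+ arrays lay on both sides of the narrow CD34- range. The difference was 0.02 (95% interval -0.26 to 0.31, limma adjusted p = 0.913). Smo, the signal transducer that Ptch1 restrains, differed by -0.03 on its brightest probe set (95% interval -0.36 to 0.29, adjusted p = 0.895), with 11.20 to 12.10 on CD34+ arrays and 11.55 to 11.84 on CD34- arrays. Its other tested probe set, designed to the same sequence, gave -0.40 (95% interval -0.83 to 0.02, adjusted p = 0.154). Sufu, the cytoplasmic restraint on Gli proteins, differed by 0.12 (95% interval -0.30 to 0.53, adjusted p = 0.691), with 8.80 to 9.95 on CD34+ arrays and 8.86 to 9.38 on CD34- arrays. When arrays were set to equal medians, the median difference of all tested probe sets moved to -0.46 from 0.02, and Ptch1 (-0.46, adjusted p = 0.0433) and both Smo probe sets (-0.51 and -0.88) were then called lower. Relative to that shift Ptch1 and the brighter Smo probe set still lay near the median of all probe sets.

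Cdon, a co-receptor that helps present the ligand to Ptch1, had log2 signals of 12.89, 11.29, 11.19, 12.10 and 11.96 on CD34+ arrays 1 to 5, against a CD34- range of 11.00 to 11.28 with a median of 11.09. CD34+ arrays 1, 4 and 5 stood well above all CD34- arrays, array 2 was level with the highest of them, and array 3 lay within their range. The difference was 0.76 (SE 0.24, limma adjusted p = 0.0377), and the call was lost in 8 of 11 fits without 1 array (highest adjusted p = 0.0729), with equal medians (0.28, adjusted p = 0.398) and by the exact rank-sum test (adjusted p = 0.0731). Gas1, a lipid-anchored co-receptor, had 14.21, 12.57, 12.96, 13.87 and 13.59 on CD34+ arrays 1 to 5 and 12.69 to 13.28 on CD34- arrays. CD34+ arrays 1, 4 and 5 were again above all CD34- arrays, array 3 lay within their range and array 2 below it, and the difference was 0.43 (95% interval -0.09 to 0.96, adjusted p = 0.215). The other tested Gas1 probe sets gave 0.35 (adjusted p = 0.288) and 0.14 (adjusted p = 0.89). In a fit without CD34+ arrays 1, 2 and 3, chosen after the data were seen, the brightest Gas1 probe set was called at 0.73 (adjusted p = 0.0155), while the others were not (0.60, adjusted p = 0.0904, and -0.34, adjusted p = 0.761). Without arrays 1 and 2 alone that brightest one was not called (0.47, adjusted p = 0.121). Boc, a relative of Cdon and not 1 of the 10 genes, was higher on both of its tested probe sets, by 1.55 (SE 0.28, adjusted p = 0.00261) and 0.80 (adjusted p = 0.00957), with 9.40 to 11.31 on CD34+ arrays and 8.10 to 8.72 on CD34- arrays for the brighter. It was 1 of 2 tested receptor genes outside the members, and the other was not called, where 11.6% of all genes were higher.

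Hhip, a membrane protein that binds and sequesters ligand and is a pathway target, could not be assessed, as all 4 of its probe sets were left out as dim. They are among 12 member probe sets with mean log2 signals of 1.82 to 5.57, and 8 of the 12 never reached the 40th percentile of an array. Their single values reached from -0.29 to 7.65. The CD34+ mean was higher for 11 of the 12, none was free of overlap, and the lowest adjusted p in the fit without a filter was 0.145, for a Hhip probe set. Dim signals ran higher on CD34+ arrays in general, the 40th percentile being 6.33 to 6.88 there and 5.95 to 6.17 on CD34- arrays. Such a dim signal does not show that a transcript is absent.

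**Figure D2:**
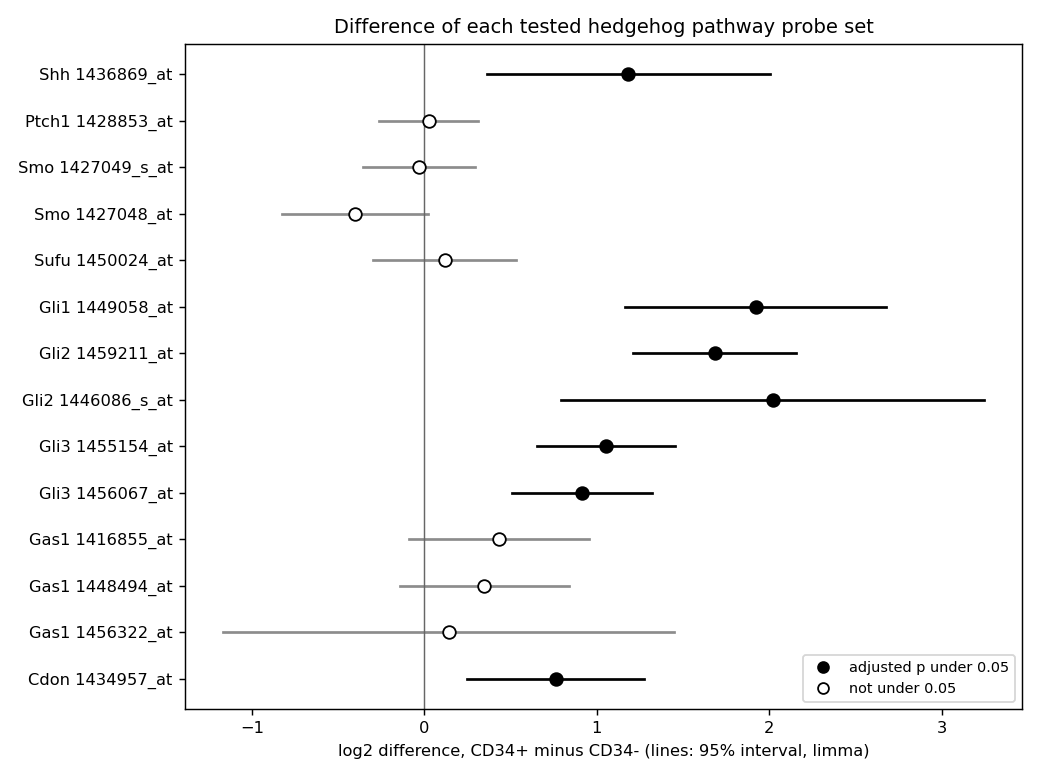
Differences in log2 signal, CD34+ minus CD34-, are shown for the 14 tested hedgehog probe sets with their 95% intervals from limma, and filled points mark an adjusted p under 0.05. The 5 Gli probe sets lie at 0.91 to 2.02, Shh and Cdon at 1.18 and 0.76, and the intervals of Ptch1, Smo, Sufu and Gas1 span 0.

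Beyond the 10 genes, 77 genes of 5 lists for the wider pathway were examined through the brightest probe set of each, and 56 were tested. Of these 12 were higher, 3 lower and 41 not called, with a median log2 difference of 0.15. The shares were 21.4% higher and 5.36% lower, where among the brightest probe sets of all 11891 tested genes 11.6% were higher and 10.5% lower. After quantile normalization 6 were higher and 2 lower, where 7.80% and 10.2% of all genes were. With equal medians 4 were higher and 18 lower, where 3.57% and 42.3% of all genes were.

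Of the genes that process and release the ligand, 2 of the 3 tested were higher, where 11.6% of all genes were. Hhat, the enzyme that adds palmitate to hedgehog proteins, differed by 0.95 (SE 0.23, limma adjusted p = 0.013), with 7.08 to 7.56 on CD34+ arrays and 5.90 to 6.77 on CD34- arrays. Disp1, which releases the lipid-bearing ligand from the cell, differed by 0.94 (SE 0.28, adjusted p = 0.0291), and Scube2 by -0.05 (adjusted p = 0.862). Neither Hhat nor Disp1 was called after quantile normalization (0.51, adjusted p = 0.128, and 0.55, adjusted p = 0.141), and Disp1 was called in 7 of 11 fits without 1 array. The other 5 genes of that list were too dim to be tested, among them the ligand genes Ihh and Dhh.

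The 19 tested regulators of the Gli factors that are not members showed a median of -0.02, with 2 higher, 2 lower and 15 not called. The shares, 10.5% higher and 10.5% lower, were near the 11.6% and 10.5% of all genes. Prkar1a, a regulatory subunit of protein kinase A, the kinase that primes Gli proteins for processing, fell by 0.89 on the log2 scale (SE 0.16, adjusted p = 0.00228), with no overlap on its brightest probe set. Its other tested probe sets gave 0.64 (adjusted p = 0.178) and -0.37 (adjusted p = 0.104). Gsk3b, another kinase that phosphorylates Gli proteins, fell by 0.44 (SE 0.14, adjusted p = 0.0426), while its other 5 tested probe sets were not called and ran from -0.22 to 0.54. The catalytic subunit gene Prkaca (0.50, adjusted p = 0.0355) and Evc2, whose product sits at the base of the cilium and binds Smo (0.67, adjusted p = 0.0357), rose, with calls kept in 4 and 2 of 11 fits without 1 array, and Gsk3b kept its own in 3. The other Prkaca probe set gave 0.04 (adjusted p = 0.896).

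Genes of ciliary transport and cilium assembly, the organelle through which Smo signals in mammals, were mostly above 0. Of 23 tested, 5 were higher (21.7%), 0 lower (0 also at an unadjusted p under 0.05) and 18 not called. Among all genes 11.6% were higher and 10.5% lower. The median of the 23 was 0.40, and 22 of the 23 differences were above 0, as were 52.0% over all genes. After quantile normalization 19 of the 23 were above 0, beside 45.0% of all genes. With equal medians 8 were above 0, with a median of -0.08, beside 19.9% of all genes with a median of -0.46. Ift57, a subunit of the intraflagellar transport particle, stood apart from the rest with a difference of 2.23 (SE 0.33, limma adjusted p = 0.000673). Its signals were 9.84 to 12.12 on CD34+ arrays and 8.26 to 8.78 on CD34- arrays, with no overlap. Ift81, of the same particle, rose by 0.84 (SE 0.20, adjusted p = 0.0119), while its other tested probe set gave 0.29 (adjusted p = 0.296). Bbs1, a subunit of the cilium trafficking complex called the BBSome, was higher by 0.71 (SE 0.21, limma adjusted p = 0.0288), a call kept in 6 of 11 fits without 1 array. It was lost after quantile normalization (0.51, adjusted p = 0.103), whereas Ift57 and Ift81 kept theirs.

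Genes reported elsewhere as hedgehog targets went in both directions. The list was not split into targets that the pathway induces and targets that it represses. The counts and the median are therefore no measure of pathway activity. Outside the 10 members 3 of 10 tested were higher, 1 was lower and 6 were not called, with a median of -0.30. Among all genes 11.6% were higher and 10.5% lower. Boc, given above, Sfrp1, a secreted Wnt inhibitor (1.29, SE 0.24), and Sox9, a transcription factor of follicle stem cells (1.16, SE 0.23), were higher, and the Notch ligand gene Jag2 was lower (-1.10, SE 0.19). Other tested probe sets of the same genes were not called for Sox9 (0.31 and 0.64), Jag2 (-0.68) and 2 of 3 of Sfrp1. The cell cycle targets Ccnd1 and Ccnd2 are named after their values were seen. Ccnd1 was called on none of its 3 tested probe sets, with -0.62 (limma adjusted p = 0.0987) on the brightest. Ccnd2 was not called on its brightest probe set (-0.53, adjusted p = 0.12), whereas 5 of its 6 other tested probe sets were lower in CD34+ cells, at -0.71 to -1.52, with -1.22 (SE 0.20, adjusted p = 0.00112) as the one of smallest p, and the sixth gave -0.08.

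**Figure D3:**
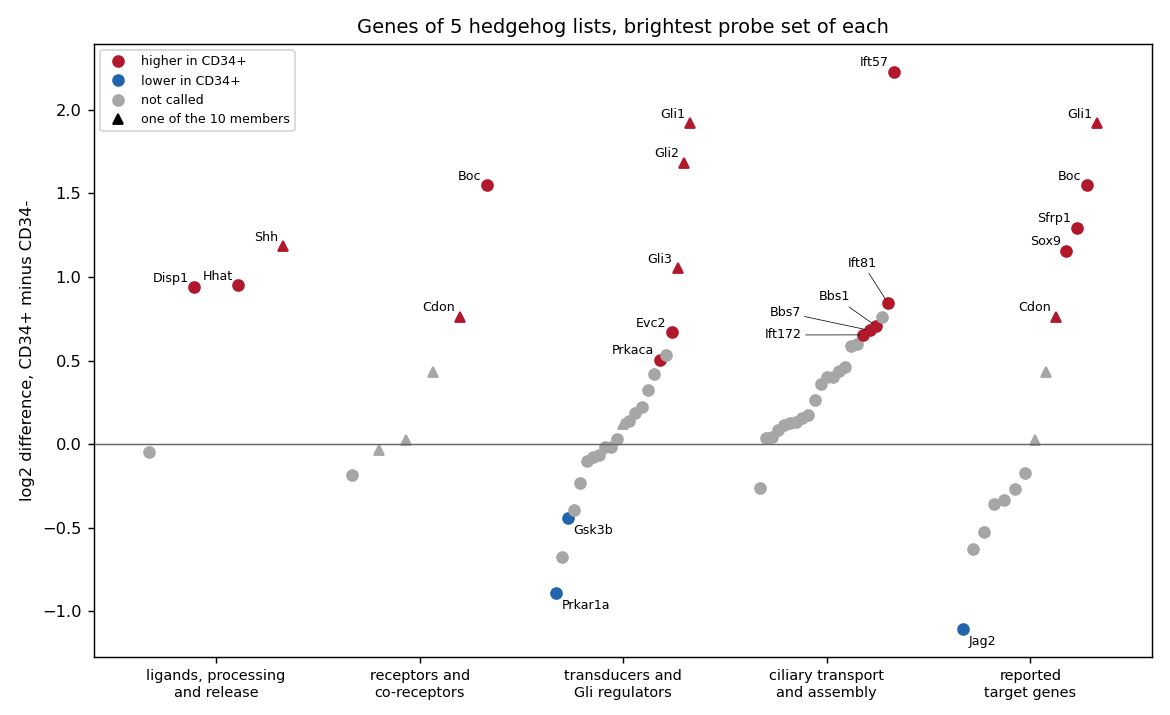
Each point is 1 tested gene of 5 hedgehog lists, placed by the log2 difference CD34+ minus CD34- of its brightest probe set, in rising order within a list, with called genes coloured and named and the 10 members as triangles. Gli1, Gli2, Boc and Ift57 lie at 1.55 or above, and Prkar1a and Jag2 are the lowest called genes of their lists.

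The fractions also differed in cell type markers and in a measure of RNA degradation. Cd34 had log2 signals of 10.54 to 12.92 on CD34+ arrays and 2.00 to 5.501 on CD34- arrays. Of 11 markers of bulge and hair germ, 9 were higher in CD34+ cells, where 11.6% of all genes were higher. Of these 9, Fgf18 passed the filter only through its CD34+ values (mean log2 9.50, against 4.67 in CD34- cells). Krt15 and Cdh3 were not called, and Cdh3 ran the other way (-1.11, limma adjusted p = 0.108). After quantile normalization Cdh3 was at -1.62 (adjusted p = 0.0252). Markers of dermal fibroblasts and dermal papilla, cells that also express hedgehog pathway genes, were higher too, in 4 of 5 tested, beside the same 11.6%. Their summed signal over 10 genes was 3309 to 8939 on CD34+ arrays and 616 to 1076 on CD34- arrays. Col1a2, a fibrillar collagen gene, was the brightest of these genes and so weighs most in that sum. It averaged 11.70 ± 0.63 in CD34+ cells (log2, SD, n = 5), against 8.21 ± 0.37 in CD34- cells (n = 6). The proteoglycan gene Dcn averaged 8.41 ± 0.19 in CD34+ cells and 6.88 ± 0.49 in CD34- cells. Col3a1, also among the 4 higher, passed the filter only through its CD34+ values (mean log2 8.42, against 4.25 in CD34- cells). The papilla markers Corin and Prom1 were under the 40th percentile on every array, and Col1a1 and Lum were too dim to be tested. Whether RNA of such cells has a part in the differences of Gli1, Gli2, Gli3, Cdon and Boc was not tested. The log2 ratio of the 3-prime to the 5-prime actin control, a measure of how far labelled RNA reaches toward the start of a transcript that is larger for degraded RNA, was 2.91 to 5.25 on CD34+ arrays and 2.19 to 2.76 on CD34- arrays. As the ratio does not overlap between the fractions, its part and that of the fraction cannot be told apart fully. With the ratio as a covariate 0 of the 14 probe sets were called (5 higher and 1 lower at an unadjusted p under 0.05), in a limma fit that called 0.711% of all probe sets, 0.591% higher, and the differences were 1.64 for Gli1 (adjusted p = 0.227), 1.48 for Gli2 (adjusted p = 0.079) and 1.02 for Gli3 (adjusted p = 0.152). Shh and Cdon then differed by 0.45 (adjusted p = 0.785) and 0.53 (adjusted p = 0.603). Without CD34+ arrays 1, 2 and 3, which have the highest ratios, 6 of 13 tested member probe sets were higher and 0 lower, in a limma fit that called 6.66% of all probe sets higher and 6.57% lower. These 6 were both Gli2 and both Gli3 probe sets, Cdon and the brightest Gas1 probe set. Gli1 was too dim to be tested there, and Shh lost its call (0.74, adjusted p = 0.138). That fit kept only CD34+ arrays 4 and 5, whose ratios of 2.91 and 3.06 still lay above those of all CD34- arrays.

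The CD34+ arrays varied more among themselves than the CD34- arrays. The SD was larger on CD34+ arrays for 12 of the 14 tested member probe sets, and for 77.5% of all tested probe sets. CD34+ array 1 was the highest CD34+ array for 5 of the 7 called member probe sets, as it was for 56.4% of all probe sets called higher. Array 1 also had the highest actin ratio, 5.25, and the highest summed signal among CD34+ arrays for 6 of the 13 marker lists, those of bulge (99379), fibroblasts (8939), melanocytes (14342), hair matrix (9073), Merkel cells (4276) and endothelium (696). CD34+ array 3 was the lowest for 3 of the 7, as it was for 28.4% of all probe sets called higher.

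**Figure D4:**
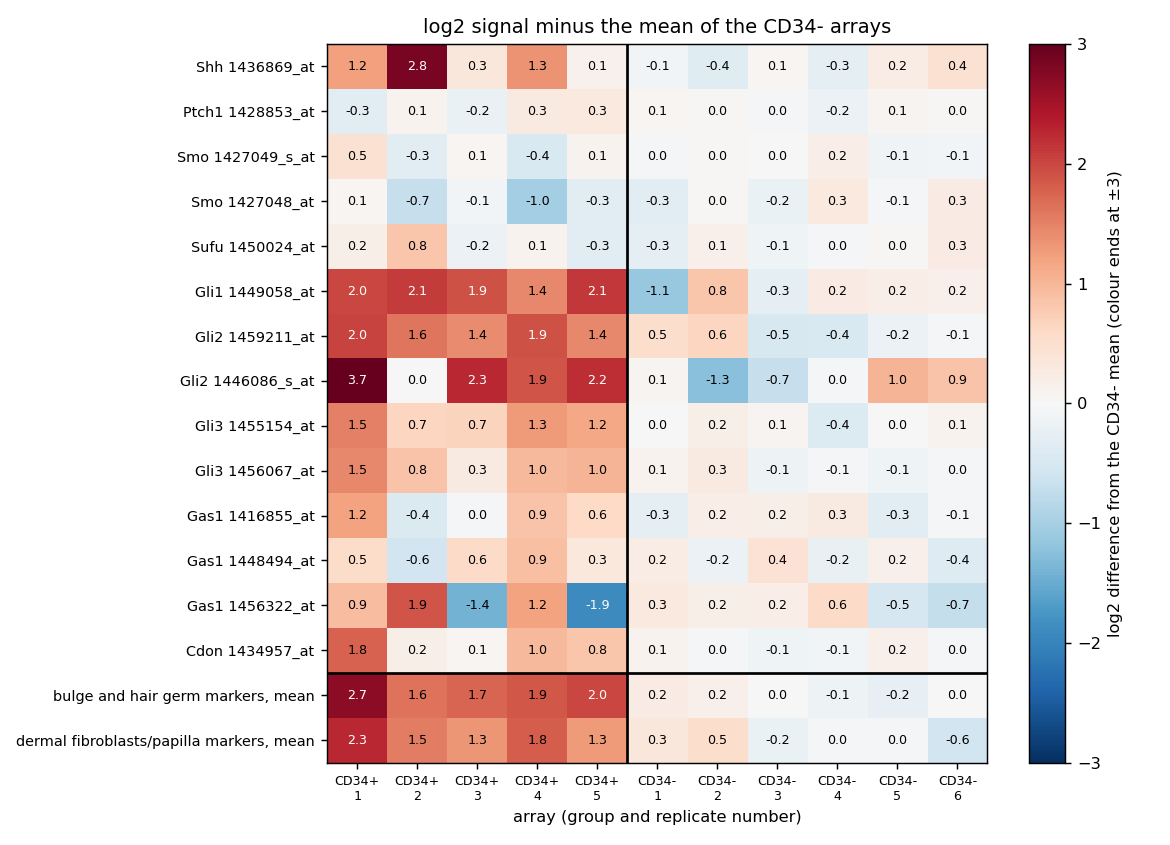
The log2 signal of each tested hedgehog probe set, and the mean over the bulge and the fibroblast marker lists, is shown for each array as the difference from the CD34- mean, with 5 CD34+ arrays left of 6 CD34- arrays. Both marker lists, Gli1, the brighter Gli2 probe set, both Gli3 probe sets and Shh are above the CD34- mean on all 5 CD34+ arrays. Cdon and the brightest Gas1 probe set are clearly above it on CD34+ arrays 1, 4 and 5. On arrays 2 and 3 Cdon is only slightly above it and that Gas1 probe set is below it.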

How the data were processed

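Total RNA of each fraction was labelled with biotin and hybridised to single-channel Affymetrix arrays. The authors deposited 1 log2 value per probe set and array, and the submitters' processing notes name MAS5, without a version or settings. That the scale is log2 was read from the values, since the linear signals shared a trimmed mean of 500.00 on all 11 arrays. No detection calls were used. Of 45101 probe sets, 34945 had 1 gene symbol in the platform annotation, 932 had several and 9160 others had none. The dimmest 40% by mean log2 signal were left out (under 6.06), and 20967 probe sets were tested as CD34+ minus CD34- with limma 3.58.1 in R 4.3.3, with an intensity trend and Benjamini-Hochberg adjustment over all of them. Every adjusted p comes from such a limma fit, except those of the exact rank-sum test, which were adjusted in the same way. The number of arrays limits the precision, and the median standard error was 0.22. The fit was tested on simulated data, where it called 9 of 50 changes of 1.5-fold and 23 of 50 of 2-fold. It also called 44 of 50 of 4-fold, 48 of 50 of 8-fold and 12 of 20767 unchanged probe sets. The simulated noise was independent and equally wide in both fractions, and few probe sets were changed. In the measured values 77.5% of tested probe sets had the larger SD on CD34+ arrays, and 20.7% were called. The simulated rates therefore need not hold for them.

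The 10 genes, the lists and the tests were chosen with earlier results of these data known. Named were all member probe sets, up to 3 called genes per direction and wider list, and the 2 brightest genes of each of 13 marker lists. Any other gene named is marked or was named to complete or limit a count. Whether replicate numbers pair the arrays is not settled, and the main fit treated them as unpaired. Same-numbered deviations correlated at 0.02 to 0.18, and 1 of 5 pairs was above 0.1. Differently numbered ones correlated at -0.23 to 0.21, so these values cannot decide it. Alternatives covered scaling, filter, floor, offset, probe set choice, an exact rank-sum test, array weights, moderation, the threshold, an actin covariate, the replicate block and each array left out. The 2 fits without several CD34+ arrays were added after the data were seen.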

Additional observations from a re-analysis of the deposited data

Results flagged for a closer look

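Among the 14 tested hedgehog probe sets, both fractions were searched for an array far from its group, 28 groups in all, and chance alone gives such a find in about 1 of 20 groups. A single value stood out. On CD34- array 4 the brightest Gli3 probe set had a log2 signal of 8.055, while the next lowest CD34- array had 8.46 and the highest 8.65, so that the gap was 0.68 of the whole range where 0.625 is the limit for 6 arrays. The second Gli3 probe set had 8.28 on that array, within 8.20 to 8.60 on the other CD34- arrays. Without the array the difference of the brightest Gli3 probe set was 0.97 (limma adjusted p = 0.00596), and its call was kept.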

How the results depend on the processing

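The 5 Gli probe sets, Shh and Cdon stayed above 0 in every alternative that tested them, and the calls changed as follows. Leaving out 1 array gave 4 to 7 higher and 0 lower hedgehog probe sets, 8 to 16 called genes of the wider lists and 2979 to 4553 called probe sets in all, the lowest hedgehog counts being 4 without CD34- array 2 and 4 without CD34- array 3, and the lowest wider count 8 without CD34- array 3. Higher hedgehog probe sets numbered 4 with 1 probe set per gene (8 tested, Gli1 not among them), 4 with the exact rank-sum test, 4 at an adjusted p under 0.01, 3 with equal medians and 0 with the actin covariate, instead of 7. Lower ones numbered 3 with equal medians and 1 with array weights (a Smo probe set, -0.56), instead of 0. Ptch1 turned to -0.46 with equal medians. The wider lists had 8 called genes after quantile normalization, 6 at an adjusted p under 0.01 and 0 with the actin covariate, instead of 15. Called probe sets in all were 8914 with equal medians, 2697 with 1 probe set per gene, 149 with the actin covariate, 1511 at an adjusted p under 0.01, 2853 without CD34+ arrays 1 and 2, and 2775 without CD34+ arrays 1, 2 and 3, instead of 4344. Fewer genes tested, a stricter threshold or fewer arrays are part of 4 of these settings, and for the others the cause was not tested. With the replicate block, which makes no use of CD34- array 6, 6 hedgehog probe sets were higher and 0 lower, Shh lost its call (1.27, adjusted p = 0.0619), 10 wider genes and 3034 probe sets in all were called, and no other hedgehog call changed. Dim signals limit Gli1 and the dimmer Gli2 probe set in CD34- cells, and all of Hhip.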

Other observations

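Other cell type markers, read through the brightest probe set of each gene, moved as follows, with 11.6% of all genes higher and 10.5% lower in limma. T cell markers were lower in CD34+ cells for 4 of 6 tested, with 0 higher, and their summed signal was 540 to 1700 on CD34+ arrays and 2252 to 4253 on CD34- arrays. These were Thy1 (-1.20), Cd3g (-2.69), Cd3e (-1.48) and Cd7 (-3.85). Cd7 passed the filter only through its CD34- values (mean log2 8.94, against 5.10 in CD34+ cells). Hair matrix and anagen bulb markers, the lineage in which Shh is known to be made during hair growth, had 1 of 7 higher, Hoxc13 (2.03), and 2 lower, the 2 brightest of the list, Gata3 (-1.12, SE 0.28) and Foxn1 (-1.005, SE 0.25). Their summed signals overlapped, at 5062 to 9073 on CD34+ arrays and 8386 to 10904 on CD34- arrays. Hoxc13 passed the filter only through its CD34+ values (mean log2 7.42, against 5.39 in CD34- cells).

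The single tested gene of the Merkel cell list, the keratin gene Krt8, rose by 3.58 (SE 0.34, adjusted p = 2.97e-05), and Atoh1, the factor that defines Merkel cells, was too dim to be tested. Of the muscle list Acta2 rose by 2.05 (SE 0.54) and Itga8 differed by 0.50 (adjusted p = 0.173), while Myh11 and Cnn1 were under the 40th percentile on every array. Endothelial markers had 0 of 2 called by limma, Eng at 0.45 and Kdr at 0.12, with 0 of them at an unadjusted p under 0.05. Basal keratinocyte markers had 2 of 6 lower, Trp63 (-0.38) and Itga6 (-0.53), and 0 higher, with Krt5 at -0.07 and Col17a1 at -0.13, and suprabasal markers had 1 of 7 higher, Lor (1.02), while Krt10 differed by 0.36 (adjusted p = 0.0501). Among bulge markers the 2 brightest were Nfatc1 (1.02, SE 0.21) and Krt15 (0.47, adjusted p = 0.0531). Melanocyte markers had 1 of 7 higher, Mitf (1.42), with Dct at -0.50, and sebaceous markers 1 of 5 higher, Prdm1 (1.11), with Scd1 at -0.24 and Plin2 at -0.14. Antigen presenting and myeloid markers had 2 of 6 higher, H2-Aa (0.95) and H2-Ab1 (0.73), and 1 lower, Ptprc (-1.81). Nerve and Schwann cell markers had 1 of 4 higher, Cnp (1.13), and 1 lower, Ngfr (-1.47), with Mbp at -0.77 (adjusted p = 0.0532).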
